A study of Mus musculus with 2 samples.

Results

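Of the 1174 miRNA hairpins that GENCODE M21 names in the mouse, 5 lie together in an intron of Clcn5, the gene of an endosomal chloride/proton exchanger. They are Mir532, Mir188, Mir362, Mir501 and Mir500. Small RNA tags that matched one of these 5 hairpins perfectly over their whole length were taken as their products, and both arms of each hairpin were counted. In all, 60 distinct tags matched, and 0 of them matched another miRNA hairpin or any other annotated transcript, so that every read counted here has 1 source within this annotation. The tags gave 10 arms with reads, out of 1139 arms with reads over all hairpins (copies with the same most frequent tag counted once), and 7 of these 10 reached at least 1 RPM in either library. RPM is the number of reads scaled to 1000000 clean reads of the library.

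The cells were J1, an established mouse embryonic stem cell (mESC) line, grown on gelatin without feeders in a medium with serum replacement and 1000 U/mL of LIF, a cytokine that supports self-renewal. One culture condition received PD0325901 (PD), an inhibitor of the kinase MEK that blocks ERK1/2 signaling, at 1 μM for 24 h. The other received an equal volume of the solvent DMSO, and LIF was present in both. Each treatment was carried out in 3 independent experiments, whose RNA was mixed and sequenced as 1 library. There were no replicates, and all tests compare the reads of these 2 libraries and not the conditions. Clean reads numbered 18870345 with DMSO (the control) and 20944808 with PD, and 3 reads, the number taken as the floor, stood for 0.159 and 0.143 RPM. The miR-290-295 cluster, typical of mESCs, was abundant in both, at 33346 and 28640 RPM. The size range of miRNAs, 20 to 24 nt, held 63.0% of clean reads with DMSO but 52.0% with PD, while 28 to 32 nt held 7.11% and 17.0%. Perfect matches to miRNA hairpins made up only 11.6% of clean reads with DMSO and 10.1% with PD. Most reads of 20 to 24 nt therefore matched no annotated miRNA hairpin. Results that turn on the denominator of all clean reads are given with others.

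A miRNA hairpin is cut out of a longer transcript by Drosha with DGCR8 and then by Dicer, which leaves a duplex of the 5′ arm (5p) and the 3′ arm (3p). Usually one arm is loaded into Argonaute and guides it to mRNAs that pair with the seed, bases 2 to 8 of the miRNA, while the other is degraded. Hairpins in one intron can be transcribed together, yet each is processed on its own, and the 3′ end of the mature miRNA can be trimmed or extended by bases that the genome does not hold.

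The 5 hairpins lie on the minus strand of chromosome X (GRCm38) within 10.8 kb. In the direction of transcription the order is Mir532 (chrX:7248402-7248497), Mir188 (chrX:7247989-7248056), Mir362 (chrX:7241982-7242046), Mir501 (chrX:7241243-7241351) and Mir500 (chrX:7237683-7237774). Clcn5 spans chrX:7153810-7319358 on the same strand. All 5 hairpins are within a single intron of 103648 bp, intron 3 of the 15-exon protein-coding transcript, and 0 of them overlap an exon of Clcn5. The annotation holds 0 other named miRNA hairpins within 50 kb on this strand. The hairpins form 2 close pairs, with 345 bp between Mir532 and Mir188 and 630 bp between Mir362 and Mir501, while 5942 bp separate the pairs and 3468 bp separate Mir501 from Mir500.

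The mature sequences show how the cluster is related within itself. They are given 5′ to 3′ with the seed in capitals, from RefSeq (GRCm38.p6) for 9 arms and, for miR-532-5p, as the most frequent tag of these libraries. The first set holds the arms with the seeds AUGCACC and ACACACC, the 3p arms of the last 3 hairpins.
miR-501-3p: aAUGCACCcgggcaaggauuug
miR-500-3p: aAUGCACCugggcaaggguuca
miR-362-3p: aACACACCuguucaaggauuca
The second set holds the 5p arms of the same hairpins, of which miR-362-5p and miR-500-5p share the seed AUCCUUG.
miR-501-5p: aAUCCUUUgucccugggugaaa
miR-500-5p: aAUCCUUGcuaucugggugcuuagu
miR-362-5p: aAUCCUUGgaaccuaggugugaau
The third set holds the arms of Mir532 and Mir188.
miR-532-5p: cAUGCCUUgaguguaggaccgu
miR-188-5p: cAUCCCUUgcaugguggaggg
miR-532-3p: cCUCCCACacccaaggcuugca
miR-188-3p: cUCCCACAugcaggguuugca
Compared from the first base without gaps, the most frequent tags of miR-501-3p and miR-500-3p were identical at 18 of 22 bases. The most frequent tag of miR-532-3p and the 22 nt tag of miR-188-3p were identical at 18 of 22 as well. This tag of miR-188-3p starts at the base before the RefSeq start and was only as frequent as the 21 nt form. The most frequent tag began at the first base of the RefSeq sequence in 8 of the 9 arms. The exception was miR-188-3p, whose 4 reads were divided equally between the RefSeq start and the base before it. From that earlier base the seed is CUCCCAC, the seed of miR-532-3p, but 4 reads cannot show which start prevailed. Outside the cluster, 1 other arm of at least 1 RPM carried a seed of a member, where for miR-188-3p the seed CUCCCAC was searched and UCCCACA was not. This was miR-329-3p, a miRNA of the imprinted Dlk1-Dio3 region, with the seed ACACACC of miR-362-3p. Its level was 102 RPM with DMSO and 79.6 RPM with PD, where miR-362-3p had 5.56 and 6.11 RPM.

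The cluster as a whole was expressed at a modest level that hardly differed between the libraries. Its arms held 1074 reads in the control and 1141 in the PD library, which is 56.9 and 54.5 RPM and a fold change of 0.957 (95% Clopper-Pearson interval 0.880 to 1.04, exact binomial test, p = 0.307). With reads that match miRNA hairpins in place of all clean reads as the denominator, the fold change was 1.10 (exact binomial test, p = 0.0302), and with clean reads of 20 to 24 nt it was 1.16 (p = 5.25e-04 from the same exact test). The direction of the sum therefore depended on the denominator. Across the 497 arms of at least 1 RPM, the median log2 fold change was -0.17 with all clean reads, 0.03 with miRNA reads and 0.11 with reads of 20 to 24 nt.

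**Figure D1:**
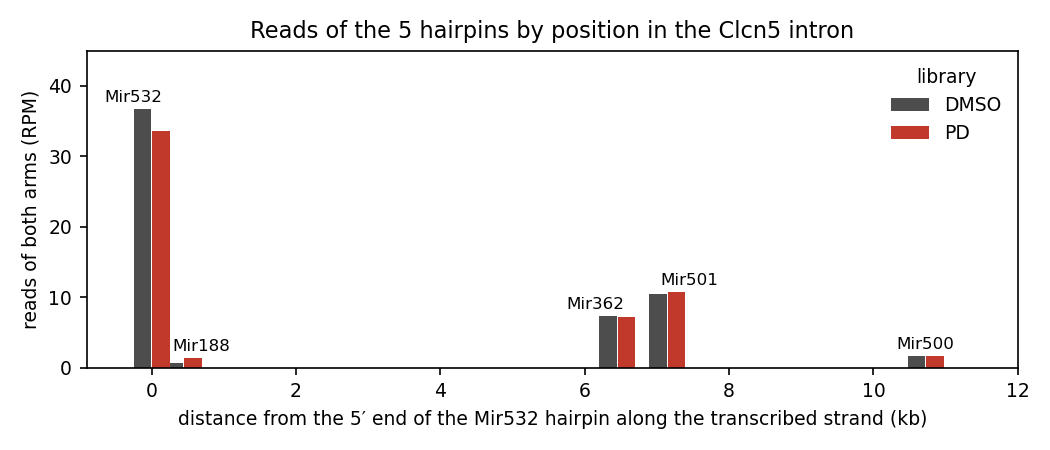
Reads of both arms of each hairpin in RPM (vertical axis) against the distance of its 5′ end from that of Mir532 in kb (horizontal axis), with grey bars for the DMSO and red bars for the PD library, drawn side by side. Mir532, the first hairpin, stands at 36.8 and 33.6 RPM, and Mir188, 441 bp downstream of its start, at 0.636 and 1.38 RPM.

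Hairpins that lie next to each other differed widely in their number of reads. Mir532 held 694 reads in the control and 703 in the PD library, 64.6% (95% Wilson interval 61.7 to 67.4) and 61.6% (58.8 to 64.4) of the reads of the cluster. Mir188, its nearest neighbour, held 12 and 29 reads, 1.12% (0.640 to 1.94) and 2.54% (1.78 to 3.63). Mir501 held 197 and 224 reads, Mir362 140 and 151, and Mir500 31 and 34. By perfect tags the order of the 5 hairpins was Mir532, Mir501, Mir362, Mir500 and Mir188 in both libraries. When reads with 1 or 2 bases added at the 3′ end were counted too, Mir188 had 42 and 64 reads and stood above Mir500 with 36 and 40 in both libraries. By perfect tags, in the PD library the intervals of Mir500 (2.14% to 4.14% of the cluster) and Mir188 overlapped.

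These shares do not depend on the denominator, and they ask whether the hairpins of one intron moved alike. Of the 5 hairpins, 1 passed the test of its share, against 48.2% of the 253 hairpins tested in all genomic clusters. The share of Mir188 rose by 1.42 percentage points (Fisher's exact test, adjusted p = 0.0359). The other 4 did not pass, with differences between -3.01 points for Mir532 (Fisher's exact test, adjusted p = 0.235) and 1.29 points for Mir501 (adjusted p = 0.591 from the same exact test). When reads with bases added to the 3′ end were counted too, the difference of Mir188 was 1.46 points (Fisher's exact test, adjusted p = 0.132).

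Among the single arms, miR-532-5p was the most abundant in both libraries, with 463 and 513 reads (24.5 and 24.5 RPM). It was followed in the control by miR-532-3p (231 reads, 12.2 RPM) and miR-501-3p (193 reads, 10.2 RPM), whose 95% Poisson intervals of 10.7 to 13.9 and 8.84 to 11.8 RPM overlapped. In the PD library these came in the opposite order, with 190 reads (9.07 RPM) of miR-532-3p and 220 reads (10.5 RPM) of miR-501-3p, and their intervals again overlapped. A tag is a whole molecule, so RPM of different miRNAs was compared without division by length. Whether adaptor ligation and PCR recovered different sequences equally was not tested, so orders and ratios of arms or hairpins are those of reads.

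The fourth was miR-362-3p with 105 and 128 reads. Below it, miR-362-5p (35 and 23 reads), miR-500-3p (28 and 34 reads) and miR-188-5p (10 and 27 reads) lay within 0.530 and 1.85 RPM, and in the PD library the intervals of all 3 overlapped. With reads that carry added 3′ bases, miR-188-5p had 40 and 62 reads (2.12 and 2.96 RPM), more than miR-362-5p (35 and 26 reads) and miR-500-3p (33 and 40 reads) in both libraries. The remaining 3 arms stayed under 1 RPM in both libraries. Of these, miR-501-5p had 4 reads in each library, miR-188-3p had 2 in each, and miR-500-5p had 3 in the control and 0 in the PD library. There, 0 reads allow up to 0.143 RPM by the floor of 3 reads and 0.176 RPM by the Poisson interval. Even miR-532-5p ranked only 182nd of the 497 arms in the control and 169th in the PD library.

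**Figure D2:**
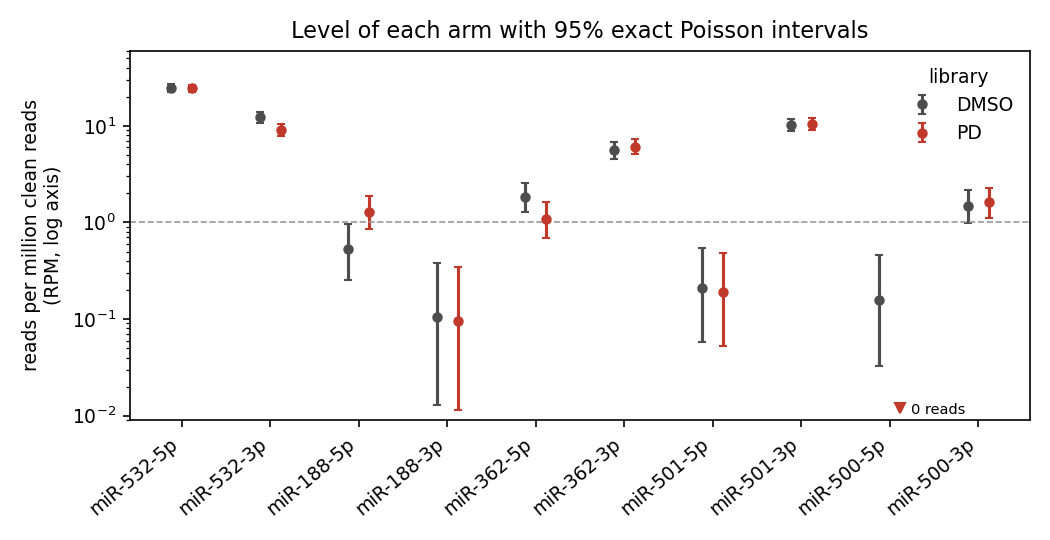
Level of each of the 10 arms in RPM on a log axis, with grey points for the DMSO and red points for the PD library and bars for the 95% exact Poisson intervals, which cover counting error only. The dashed line marks 1 RPM, the triangle marks the PD library with 0 reads of miR-500-5p, and of the other 9 arms the intervals of the libraries are apart for 1, miR-532-3p, and overlap for 8.

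At a threshold of 1.5-fold, 1 of the 7 arms of at least 1 RPM was higher in the PD library, against 6.04% of all 497 arms, and 1 was lower, against 14.1%. The arm that was higher was miR-188-5p, with 0.530 RPM with DMSO and 1.29 RPM with PD, a ratio of 2.43 (95% interval 1.14 to 5.63, exact binomial test, adjusted p = 0.0330), which rests on 10 and 27 reads. It reached 1 RPM, and with it the set tested, through the PD library alone, where it was high. The arm that was lower was miR-362-5p, with 1.85 and 1.10 RPM. Its fold change of 0.592 had an interval of 0.334 to 1.03 and did not pass the exact binomial test (adjusted p = 0.0978).

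A smaller difference with more reads behind it was found for miR-532-3p, which fell to 0.741 times its control level (95% interval 0.608 to 0.902, exact binomial test, adjusted p = 0.00701). Of all arms, 45.5% passed the exact binomial test. In the cluster these 2 did, miR-532-3p and miR-188-5p, the second of which was in the set only through its high PD value. Neither call was kept when the spread between libraries was given an assumed biological coefficient of variation of 0.1 in the exact test of edgeR, with an adjusted p of 0.193 for miR-188-5p and 0.337 for miR-532-3p. With miRNA reads as the denominator, the fold change of miR-532-3p was 0.850 (exact binomial test, adjusted p = 0.187).

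With all clean reads as the denominator, the remaining 4 arms had fold changes close to 1. That of miR-532-5p was 0.998 (0.879 to 1.13), that of miR-501-3p was 1.03 (0.843 to 1.25), that of miR-500-3p was 1.09 (0.644 to 1.87) and that of miR-362-3p was 1.10 (0.842 to 1.44). Each of these intervals includes 1, and that of miR-500-3p is wide enough to hold a change of 1.5-fold either way, so such a change was not detectable at this depth. The median log2 fold change of the 7 arms was 0.04, beside -0.17 for all 497.

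**Figure D3:**
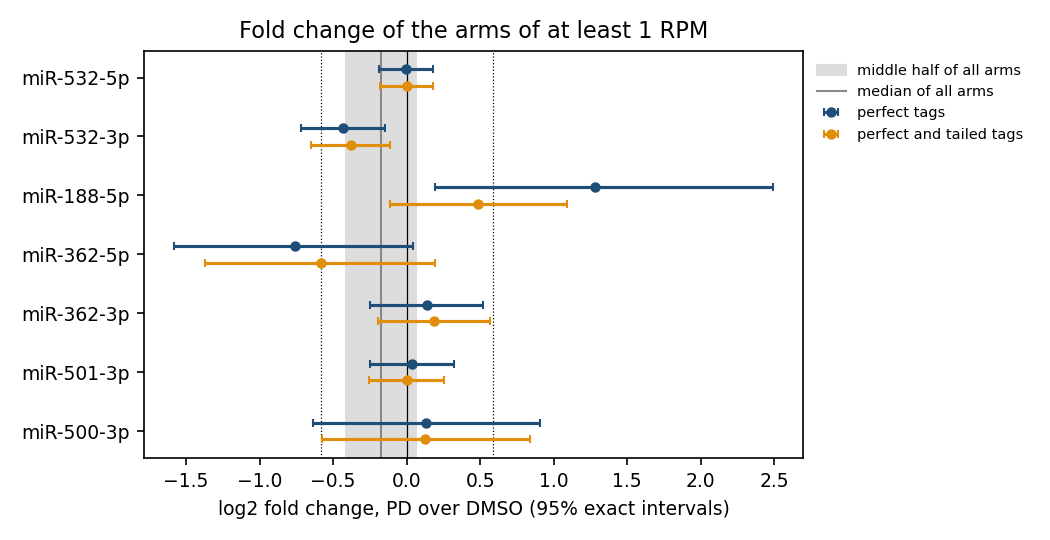
Log2 fold change of the PD library over the control (horizontal axis) for the 7 arms of at least 1 RPM, with 95% exact intervals, blue for perfect tags and orange for perfect and tailed tags together. The grey band is the interquartile range of the 497 arms, the dotted lines mark 1.5-fold, and miR-188-5p moves from a fold change of 2.43 to 1.40 when tailed tags are counted.

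The 2 arms of a hairpin come from 1 precursor. Their ratio is free of the denominator, since both are counted in the same library. The hairpins differed in which arm held the reads. In Mir532 and Mir188 the 5p arm was the more abundant, and in Mir362, Mir501 and Mir500 the 3p arm was, which made the arms with the related seeds AUGCACC and ACACACC the main product of these 3 hairpins. In Mir501 the preference was the strongest of the 5 in the control library, with 48.3 reads of the 3p arm for each read of the 5p arm in the control and 55.0 in the PD library.

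For Mir532 the ratio of 5p to 3p reads was 2.00 in the control and 2.70 in the PD library. The 5p share went from 66.7% (95% Wilson interval 63.1 to 70.1) to 73.0% (69.6 to 76.1), an odds ratio of 1.35 (95% interval 1.06 to 1.71), and it did not pass the adjustment over 315 hairpins (Fisher's exact test, adjusted p = 0.0783). For Mir362 the difference lay the other way. Its 5p share was 25% (18.6 to 32.8) in the control and 15.2% (10.4 to 21.8) in the PD library (Fisher's exact test, adjusted p = 0.191). Mir501 had 2.03% and 1.79% of its reads on the 5p arm (adjusted p = 1 from the same exact test). Mir500 had 3 of 31 reads there in the control and 0 of 34 in the PD library, which allows a share of up to 8.82% by the floor of 3 reads and 10.2% by the Wilson interval (Fisher's exact test, adjusted p = 0.360). Mir188, with 10 reads of 5p and 2 of 3p in the control and 27 and 2 in the PD library, had too few reads in the control for this test. Among all hairpins tested, 14% passed, and of the 4 tested here 0 did. At an unadjusted p under 0.05 the exact test counted Mir532 (p = 0.0121) and Mir362 (p = 0.0406), 2 of 4, and 68 of all 315 hairpins (21.6%).

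**Figure D4:**
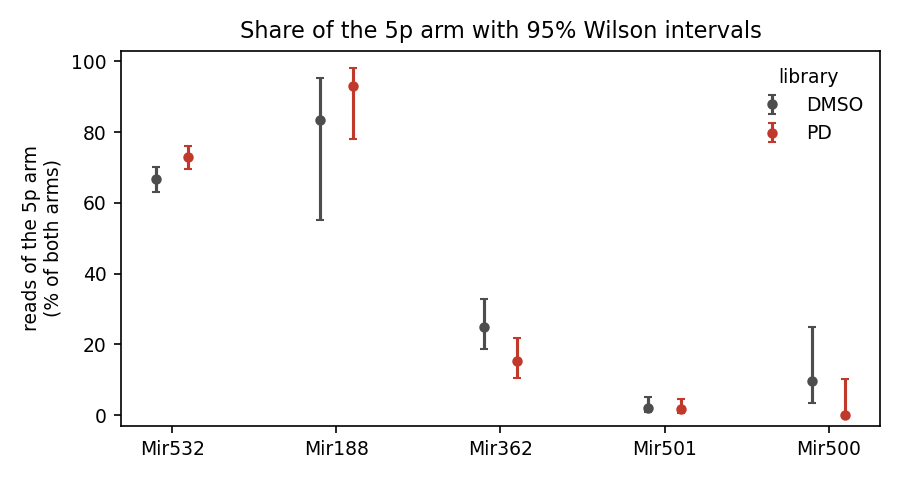
Reads of the 5p arm as a percentage of the reads of both arms (vertical axis) for the 5 hairpins, with grey points for the DMSO and red points for the PD library and bars for 95% Wilson intervals. Mir532 and Mir188 lie above 60% and the other 3 hairpins at 25% or less in both libraries.

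The position of the 5′ end sets the seed, and it was nearly fixed. In the 6 arms with at least 20 reads in each library, between 96.9% and 100% of the control reads and between 97.1% and 100% of the PD reads began at the same base. Of these 6 arms 0 passed the test of this share, against 3.47% of the 461 arms tested, and their adjusted p was 1 in each case (Fisher's exact test). At an unadjusted p under 0.05 the count was also 0. Among perfect tags miR-532-5p had the most reads with another start, 8 in the control and 7 in the PD library. With tags extended at the 3′ end, miR-501-3p had the most, 16 of 244 and 10 of 271 reads.

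The 3′ ends varied more. Tags of miR-501-3p ended at any of several bases, and the longer ones took a larger part in the PD library. The 3 most frequent perfect forms are shown for their 3′ ends, as the files give them.
23 nt: aatgcacccgggcaaggatttgg
22 nt: aatgcacccgggcaaggatttg
21 nt: aatgcacccgggcaaggattt
The form of 23 nt had 78 reads in the control and 133 in the PD library, that of 22 nt 59 and 52, and that of 21 nt 22 and 18. Tags of 18 to 20 nt of this arm had 30 and 15 reads. Reads of 21 nt or more made up 84.5% (95% Wilson interval 78.7 to 88.9) in the control and 93.2% (89.1 to 95.8) in the PD library (Fisher's exact test, adjusted p = 0.0285). Of the 6 arms of the cluster that were tested this was the 1 that passed, against 24.7% of 461 arms, and the median of this share over all those arms was 94.0% in the control and 96.3% in the PD library. For the other 5 arms the shares lay between 91.3% and 100%. Counted by its most frequent tag alone, miR-501-3p had a fold change of 1.54 (exact binomial test, adjusted p = 0.00650), while all of its tags together gave 1.03.

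Perfect matching leaves out reads whose 3′ end was extended by bases that are not in the hairpin. Tags that match an arm except for their last 1 or 2 bases are called tailed here. They were matched to the hairpins only, and the comparison of their shares was chosen after the values had been seen. The cluster had 57 such tags, with 131 reads in the control and 154 in the PD library, 10.9% and 11.9% of its reads. Over 482 arms with at least 20 reads in each library, the median share of tailed reads was 8.0% and 8.76%.

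In miR-188-5p, tailed reads were the majority. It had 30 tailed and 10 perfect reads in the control and 35 tailed and 27 perfect reads in the PD library, a tailed share of 75% (95% Wilson interval 59.8 to 85.8) and 56.5% (44.1 to 68.1). Of the 482 arms, 6 had a higher share in the control and 21 in the PD library. The most frequent perfect tag and its most frequent tailed forms are shown as the files give them, with the added bases in capitals.
perfect: catcccttgcatggtggagggt
A tail: catcccttgcatggtggagggtA
U tail: catcccttgcatggtggagggtT
2 A: catcccttgcatggtggagggAA
The perfect tag had 7 reads in the control and 20 in the PD library. The form with 1 added A had 14 and 13 reads, that with 1 added U 8 and 9, and that with 2 added A 5 and 6. By read counts these tailed forms were thus about equal in both libraries and the perfect form differed. The difference in the tailed share did not pass its test, as given below.

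With tailed tags included, miR-188-5p went from 40 to 62 reads, a fold change of 1.40 (95% interval 0.924 to 2.13, exact binomial test, adjusted p = 0.202). Tailed reads alone gave 1.05 (0.627 to 1.77). The difference in the tailed share itself, -18.5 percentage points, did not pass (Fisher's exact test, p = 0.0621, adjusted p = 0.340). Of the 7 arms tested 0 passed, against 9.96% of 482 arms, and at an unadjusted p under 0.05 the count was 0 too.

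Tails were also frequent on miR-501-3p, and here they were mostly U. Of its 51 tailed reads in each library, 44 in the control and 45 in the PD library had only U added, and the tailed share was 20.9% and 18.8%. On miR-532-5p tails were mostly A, with 18 of 23 and 19 of 27 tailed reads, and made up 4.73% and 5.00%. On miR-532-3p they were of both kinds and made up 7.97% and 11.2%. The other arms tested had 15.2% and 15.0% for miR-500-3p, 1.87% and 5.19% for miR-362-3p, and 0 of 35 reads, which allows up to 8.57% by the floor of 3 reads and 9.89% by the Wilson interval, and 11.5% for miR-362-5p.

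**Figure D5:**
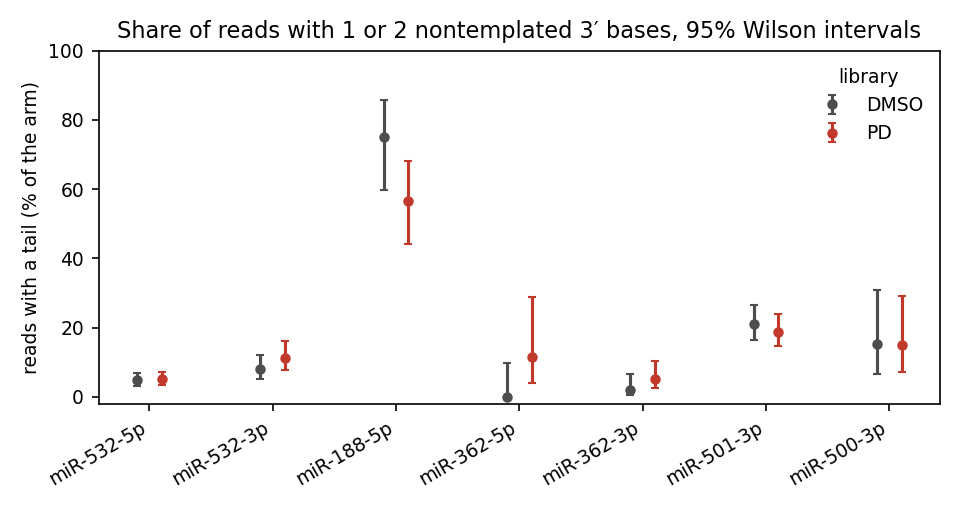
Reads with 1 or 2 added 3′ bases as a percentage of all reads of the arm (vertical axis) for the 7 arms with at least 20 reads in each library, with grey points for the DMSO and red points for the PD library and bars for 95% Wilson intervals. The arm miR-188-5p stands at 75% and 56.5%, above the other 6 arms, which lie at 20.9% or less.

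Set beside 3 other miRNA clusters, the cluster in Clcn5 had a higher fold change than 2 of them. The X-linked miR-106a-363 cluster had a fold change of 0.688 (95% interval 0.679 to 0.697) and the miR-106b-25 cluster, which lies in an intron of Mcm7, 0.760 (0.754 to 0.766). The reads of the Clcn5 cluster differed from both in their division between the libraries (Fisher's exact test, adjusted p = 6.09e-14 and 1.10e-07 over 3 comparisons). The X-linked cluster of miR-322 and miR-503 had a fold change of 1.05 (1.01 to 1.09), and the difference from the Clcn5 cluster was small (Fisher's exact test, adjusted p = 0.0494). These comparisons set reads of the same 2 libraries against each other and do not depend on the denominator. The most frequent tags of miR-92-2-3p and miR-19b-2-3p in miR-106a-363 are also those of copies outside it. Their reads could not be assigned to chromosome X. The copies miR-92-1-3p and miR-19b-1-3p had fold changes of 0.582 and 1.18. Without such a copy, miR-363-5p had 0.876 and miR-363-3p 0.640. In miR-106b-25, miR-25-3p held 98738 of the 127315 control reads, with a fold change of 0.714. The other arms of miR-106b-25 of at least 1 RPM lay between 0.888 and 0.993.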

How the data were processed

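Small RNA of 18 to 30 nt was gel purified by the authors and sequenced. The authors cleaned the reads and kept those of at least 18 nt. The deposited files give raw counts of clean reads per distinct tag, without alignment. The last line of each file, a total without a tag, was left out. The submitters' processing notes name mm9, but the files hold no coordinates, and those given are GRCm38.

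Tags were matched perfectly to GENCODE M21 hairpins with Python 3.11.15. Arms were separated at the terminal loop of the ViennaRNA 2.7.2 fold, and tags were counted that overlapped the most frequent tag of an arm by at least 16 nt. RPM is per 1000000 clean reads, and a fold change is the ratio of RPM, PD over control. Copies of a miRNA with the same most frequent tag were tested once. Read counts were compared by 2-sided exact binomial tests and shares by 2-sided Fisher's exact tests (SciPy 1.17.1), with Benjamini-Hochberg adjustment over all arms or hairpins tested. Shares were tested with at least 20 reads per library (for the share in a genomic cluster, 20 reads over both libraries, hairpins under 50 kb apart). Intervals and floors cover counting error only, and PCR duplicates were not removed. With 1 library per treatment no replicate model could be fitted. edgeR 4.0.16 (TMM, and its exact test at an assumed coefficient of variation of 0.1 or 0.2) and DESeq2 1.42.0 (size factors) served for alternatives. The tests were checked on data simulated with counting error only, which cannot show how they behave under variation between libraries.

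All arms of the 5 hairpins were named whatever their values, with other arms of the same seed, the host gene and 3 clusters for comparison. The members and lists were chosen with earlier results of these data known.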

Additional observations from a re-analysis of the deposited data

How the results depend on the processing

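No paired analysis was possible because each treatment had 1 library. The fold change of the summed cluster, 0.957 with all clean reads, lay above 1 with miRNA reads (1.10), reads of 20 to 24 nt (1.16), TMM normalization (1.02), size factors of DESeq2 (1.06) and the most frequent tags only (1.003). That of miR-532-5p, 0.998, did so too with the same 5 alternatives in that order (1.14, 1.21, 1.06, 1.11 and 1.02), with tags at the main start (1.002), tags of 21 nt or more (1.001) and tailed tags (1.001). With reads of 20 to 24 nt, miR-532-5p passed the exact binomial test (adjusted p = 0.00915). The call for miR-532-3p was lost with miRNA reads, reads of 20 to 24 nt and size factors of DESeq2, and the call for miR-188-5p with tailed tags. With the most frequent tags only, miR-188-5p (7 and 20 reads) was under 1 RPM in both libraries and was not tested, and the 1 arm higher by 1.5-fold was miR-501-3p (1.54). In that setting the share of Mir188 in the cluster no longer passed, while the fold change of miR-501-3p, the 5p share of Mir532 (7.10 points) and the cluster shares of Mir532 (-6.25 points) and Mir501 (4.84 points) did.

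The count of arms higher by 1.5-fold was 0 in place of 1 with tailed tags, with at least 10 RPM, and when edgeR's exact test at either assumed variation had to be passed. The count of lower arms was 0 in these settings and with miRNA reads, reads of 20 to 24 nt, the most frequent tags only, a 2-fold threshold or an adjusted p under 0.05 as a further criterion, and 2 without a filter, where miR-500-5p with 3 and 0 reads was added. Over all arms, the counts higher and lower were 7 and 26 of 258 with at least 10 RPM. They were 10 and 27 of 497 at an assumed variation of 0.1, and 1 and 1 of 497 at 0.2. With a 2-fold threshold they were 11 and 16 of 497, and with the adjusted p as a further criterion 18 and 57. Without a filter they were 265 and 298 of 1139. For the other settings this background was not counted, so the counts in the cluster there cannot be set against all arms. With miRNA reads and reads of 20 to 24 nt, the median log2 fold change of all arms was 0.03 and 0.11. With all clean reads it was -0.17. Differences in shares that changed sign were all small. They were those of Mir501 in the 5p share with tailed tags (0.199 points), Mir500 in the cluster with the most frequent tags only (-0.204), Mir362 in the cluster with tags of 21 nt or more (-0.203), miR-532-5p in the start with tailed tags (-0.0206), and miR-362-3p in length with tailed tags (0.0692) and a minimum of 20 nt (1.90). Of 184 alternative values over 38 results, 141 kept their direction and their side of the threshold or, for counts of arms, stayed at 1. Among these are the settings that divide or leave out tags shared between hairpins. They could not change a fold change or share here, since 0 tags of the cluster are shared. The cause of the changes in the other values was not tested. Depth limits the arms under 1 RPM, whose reads number 0 to 4 in each library.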

Other observations

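Spliced Clcn5 left few traces in the libraries. Tags that match exons of Clcn5 and no other annotated gene had 12 reads in the control and 16 in the PD library, spread over 27 distinct tags, so the level of the host mRNA could not be read from these data. Apart from the arms, 1 read of the PD library matched the Mir532 hairpin, from base 2 to base 20, and 0 reads of either library matched a loop or flank of the other 4 hairpins.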
